A study of Mus musculus with 10 samples.

Results

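The nuclear genes of mitochondrial oxidative phosphorylation were followed in whole mammary tumors of lovastatin-treated (Lov) and vehicle-treated (Vhcl) Tg-neu mice. Genes were taken by symbol: those beginning with Nduf and a, b, c, s or v, the succinate dehydrogenase genes Sdha to Sdhd, and those beginning with Uqcr, with Cox4 to Cox8, or with Atp5. Each was read by the probe set of highest mean signal among those annotated to that gene alone. This gave 90 genes of the 18193 with such a probe set: 44 under complex I, 4 under complex II, 8 under complex III, 17 under complex IV and 17 under complex V. They hold 13 core catalytic subunits, 68 accessory subunits and isoforms, and 9 products that share the naming but are not subunits, namely 8 complex I assembly factors and Cox7a2l. Ndufa11 and Ndufs6 were read only by probe sets that name several genes and were left out.

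All 10 tumors came from female FVB/N-Tg(MMTVneu) mice, in which the mouse mammary tumor virus promoter drives the neu oncogene in the mammary gland and tumors arise spontaneously. From the detection of the first tumor, the Lov group (5 tumors: A19, A48, A50, A55 and AB10) received lovastatin, an inhibitor of HMG-CoA reductase in the mevalonate pathway, intraperitoneally at 10 mg/kg body weight, 3 times per week for 6 weeks. The Vhcl group (5 tumors: A45, A49, A54, A59 and AB11) received the ethanol vehicle on the same schedule, although a free-text label calls these tumors untreated. Mouse ages were not given in the sources used here, and no label says which mouse a tumor came from, so the p-values measure the spread between these tumors. One Affymetrix mouse genome array was run per tumor, and all values below are log2 signals on the scale of Robust Multi-array Analysis (RMA), with differences given as Lov minus Vhcl.

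Oxidative phosphorylation couples the transfer of electrons from NADH and succinate to oxygen, through complexes I to IV of the inner mitochondrial membrane, to the synthesis of ATP by complex V. Most of its subunits are encoded in the nucleus, while a small set of core subunits is encoded in mitochondrial DNA. Lovastatin acts on the mevalonate pathway, which also supplies the isoprenoid tail of ubiquinone, the carrier between complexes I or II and complex III, and the farnesyl group from which the heme of complex IV is built. Each array read a whole tumor, in which fewer cells of a type and less RNA per cell cannot be told apart.

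Promoter sequence, which the choice by symbol did not use, held known motifs in part of the members. Windows of 300 bases (250 before and 50 after the annotated start; RefSeq, GRCm38.p6) were found for 74 of the 90 genes and were set against those of 27025 genes, each motif being searched on both strands. The letters CGCANGCGC, the center of the motif of nuclear respiratory factor 1 (NRF1), a transcription factor known for its sites in respiratory genes, occurred in 24 members (32.4%, against 7.12% of all genes). The letters CCGGAAG, bound by ETS factors such as GABP, occurred in 19 members (25.7%, against 9.93%), and AAGATGGCG, bound by YY1, in 7 members (9.46%, against 1.64%). At least 1 of these 3 was found in 41 members, which is 55.4%, against 16.6% of all genes, and the ETS and YY1 matches shared no bases in any member. The letters TCAAGGTCA of estrogen-related receptors were found in 2 members (2.70%, against 0.466%). By contrast, TATAAA stood in 8 members (10.8%, against 15.7%) and CCAAT in 32 (43.2%, against 41.1%). The 27025 genes were all those with a window and were not matched to the members by signal or base composition. Of the 90 members, 87 lay above the median signal of all probe sets, and the part of such traits in these shares was not tested. Shown here are the windows of the 3 members that passed the unadjusted threshold between the groups (Cox8a, Ndufa5 and Ndufs4), with their ETS, NRF1 and YY1 letters in capitals, and of the muscle isoform Cox8b, with its TATAAA in capitals. All run 5′ to 3′ on the minus strand, at chr19:7217567-7217866 (Cox8a), chr6:24527477-24527776 (Ndufa5), chr13:114388045-114388344 (Ndufs4) and chr7:140900397-140900696 (Cox8b). In Cox8a both matches read CTTCCGG, the reverse complement of the searched letters. The TATAAA of Cox8b begins after the annotated start, not before it.
Cox8a: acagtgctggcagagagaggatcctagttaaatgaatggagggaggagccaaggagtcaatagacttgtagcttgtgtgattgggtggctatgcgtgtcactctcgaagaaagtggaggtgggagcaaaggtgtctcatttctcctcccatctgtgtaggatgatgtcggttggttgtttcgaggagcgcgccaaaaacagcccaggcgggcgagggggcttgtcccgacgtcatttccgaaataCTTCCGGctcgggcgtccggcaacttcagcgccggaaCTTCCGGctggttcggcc
Ndufa5: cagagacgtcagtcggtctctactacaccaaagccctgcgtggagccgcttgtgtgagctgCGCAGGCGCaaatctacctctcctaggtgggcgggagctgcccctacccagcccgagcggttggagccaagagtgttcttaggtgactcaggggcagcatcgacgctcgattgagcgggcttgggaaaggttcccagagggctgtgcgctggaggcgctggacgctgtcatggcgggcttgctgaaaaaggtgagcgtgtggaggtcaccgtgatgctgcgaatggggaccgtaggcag
Ndufs4: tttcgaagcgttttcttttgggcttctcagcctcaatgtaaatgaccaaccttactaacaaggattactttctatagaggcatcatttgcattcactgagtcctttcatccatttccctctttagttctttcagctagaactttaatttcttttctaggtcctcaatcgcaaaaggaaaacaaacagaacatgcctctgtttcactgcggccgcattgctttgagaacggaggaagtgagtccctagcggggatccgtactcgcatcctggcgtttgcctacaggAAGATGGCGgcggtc
Cox8b: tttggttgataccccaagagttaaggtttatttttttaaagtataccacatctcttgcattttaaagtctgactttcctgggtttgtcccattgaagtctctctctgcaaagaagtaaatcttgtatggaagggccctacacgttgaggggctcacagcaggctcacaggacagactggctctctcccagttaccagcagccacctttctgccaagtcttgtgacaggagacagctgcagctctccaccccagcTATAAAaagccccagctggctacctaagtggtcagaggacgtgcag
A match describes these letters alone, and binding was not measured.

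Between the groups the 90 genes stayed close together. The median difference was -0.01, beside 0.00 over all 18193 genes, with 48 members lower (53.3%, against 49.3% of all genes) and 42 higher in the Lov group. Differences ran from -0.29 (Ndufa5) to 0.68 (Cox8b), and 83 of the 90 lay within 0.25 of 0, which is less than 1.19-fold. At an unadjusted p under 0.05, 2 members were lower in the Lov group (2.22% of 90, against 2.75% of all genes) and 1 was higher (1.11%, against 3.5%). None was past an FDR of 0.05 (limma over 45037 probe sets, lowest adjusted p = 0.919), and 0 of the 18193 genes were. In none of the 90 did the groups lie fully apart, against 0.693% of all genes. The data also bound the size of a difference: the 95% interval lay within 0.5 of 0 (1.41-fold) in 73 of the 90 members (81.1%), against 69.1% of all genes. The standard error of a difference was 0.08 to 0.35 over the members, with a median of 0.12.

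**Figure D1:**
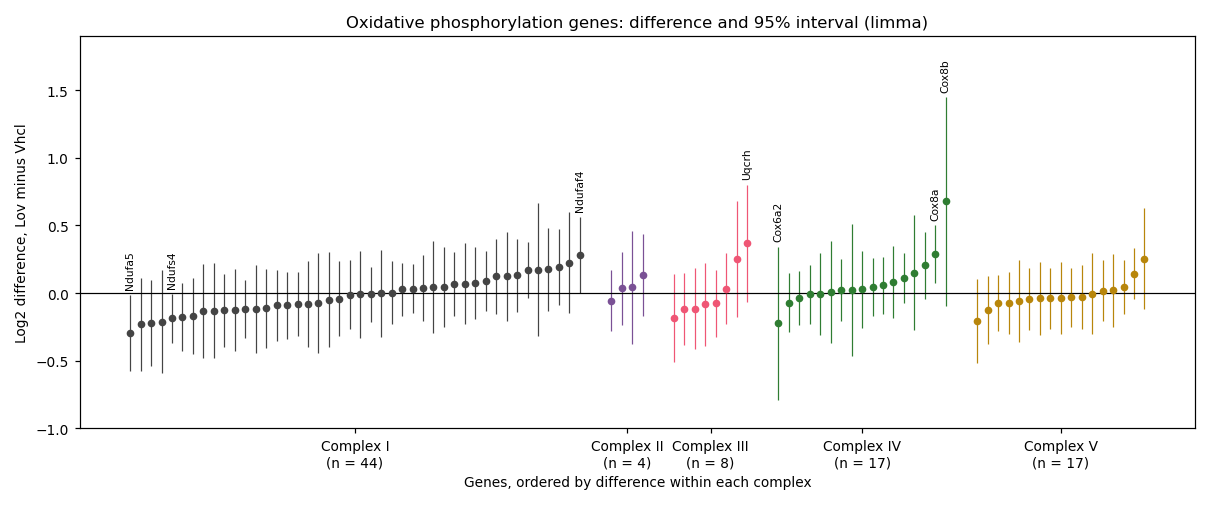
The log2 difference of each of the 90 genes (Lov minus Vhcl, vertical axis), ordered by size within complexes I to V, with the 95% interval of the limma fit as a bar (n = 5 tumors per group). Most intervals cross 0 and stay within 0.5 of it, and the widest are those of Cox8b and Cox6a2.

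In complex I, which oxidizes NADH, 25 of 44 genes were lower and 19 higher on average in Lov-treated tumors, with a median difference of -0.01. The gene with the most negative difference was Ndufa5, an accessory subunit of the matrix arm. Its signals were 9.25, 8.84, 8.90, 9.21 and 8.87 in Lov A19, A48, A50, A55 and AB10, against 9.24, 9.49, 9.16, 9.57 and 9.08 in Vhcl A45, A49, A54, A59 and AB11. Lov A48, A50 and AB10 lay below every Vhcl-treated tumor, whereas Lov A19 and A55 lay inside their range. The difference was -0.29, a 1.23-fold lower signal (standard error 0.13; 95% interval -0.58 to -0.01; limma, adjusted p = 0.932), and the other Ndufa5 probe set gave -0.22. Ndufs4, an accessory subunit of the same arm whose loss in mice causes a fatal encephalopathy, had 8.39, 8.54, 8.53, 8.40 and 8.36 in the Lov tumors in the same order, against 8.69, 8.71, 8.67, 8.52 and 8.56 in the Vhcl tumors. The groups overlapped only through Vhcl A59, which lay below Lov A48 and A50. The difference was -0.19 (standard error 0.08; limma, adjusted p = 0.936), but the other 3 probe sets of Ndufs4, with weaker signals, gave 0.25, -0.29 and -0.05. Each passed the unadjusted threshold in 4 of the 10 fits that left out 1 tumor and so had 1 sample fewer. Ndufa5 (-0.35 to -0.23 over these fits) no longer passed without Lov A48, A50 or AB10 or Vhcl A45, A49 or A59, and Ndufs4 (-0.21 to -0.17) without Lov A19, A55 or AB10 or Vhcl A45, A49 or A54.

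On the other side of complex I stood Ndufaf4, an assembly factor and not a subunit. It had 7.58, 6.99, 7.36, 7.62 and 7.14 in Lov-treated tumors, against 7.10, 6.98, 7.12, 6.92 and 7.16 in Vhcl-treated tumors. Lov A19, A50 and A55 were above every Vhcl-treated tumor, and Lov A48 was among the lowest of all 10. The difference was 0.28 (standard error 0.13; limma, adjusted p = 0.939), with 0.36 from its other probe set, and just missed the unadjusted threshold, which it passed without Lov A48 (0.37) or Lov AB10. The other 7 assembly factors of this naming lay between -0.13 and 0.09.

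The 6 core subunits of complex I that carry its flavin and iron-sulfur clusters or line its ubiquinone site differed little. Ndufv1, the NADH-binding flavoprotein, gave -0.11, and its partner Ndufv2 -0.08. Ndufs1, which holds several of the clusters, gave -0.01 and Ndufs3 -0.09. Ndufs7 and Ndufs8, whose clusters lead to ubiquinone, gave 0.13 and 0.19. Ndufs8 passed the unadjusted threshold without Lov A48 (0.30). The standard errors of the 6 lay between 0.11 and 0.15, and their lowest adjusted p was 0.979 (limma). A further probe set of Ndufv2 gave -0.20 and was the only other probe set of any member with an unadjusted p under 0.05 (limma, adjusted p = 0.932).

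Among the accessory subunits of complex I, Ndufb6 of the membrane arm varied most from tumor to tumor. It had 10.60, 9.96, 10.29, 10.42 and 10.61 in Lov-treated tumors, against 9.56, 10.36, 9.89, 10.92 and 10.28 in Vhcl-treated tumors. The lowest and the highest of the 10 values were both in the Vhcl group, and the difference was 0.17 (standard error 0.23). Ndufa4, named for complex I but now counted as a subunit of complex IV, gave 0.07 (standard error 0.14). Its paralog Ndufa4l2, known as a target of hypoxia-inducible factor, gave 0.12 (standard error 0.13). The single-gene probe set of Ndufb4 lay below the median signal of all probe sets (5.02), while the 2 probe sets that Ndufb4 shares with its copies were bright, with mean signals of 9.89 and 9.73 and differences of 0.06 and -0.03.

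**Figure D2:**
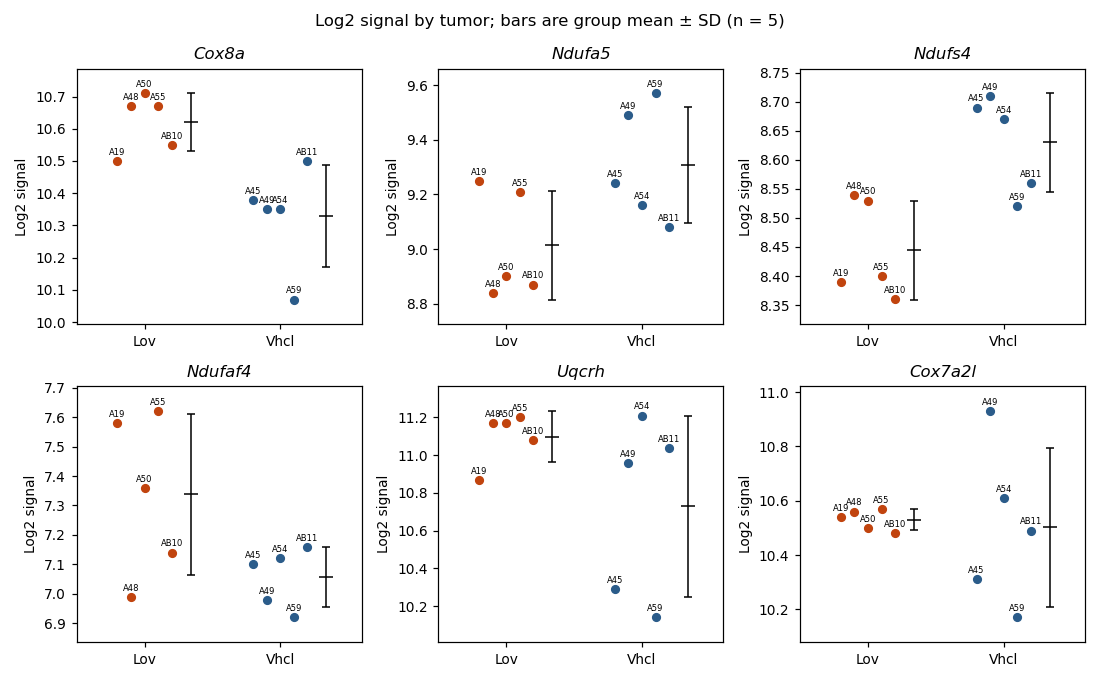
Log2 signal (vertical axis) of Cox8a, Ndufa5, Ndufs4, Ndufaf4, Uqcrh and Cox7a2l in each of the 5 Lov-treated and 5 Vhcl-treated tumors, with bars for the group mean ± SD. Cox8a is higher and Ndufa5 and Ndufs4 are lower on average in the Lov group, with at least 1 tumor of each group inside or at the edge of the other group's range, and Uqcrh and Cox7a2l spread more widely among Vhcl-treated tumors.

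Complex II, succinate dehydrogenase, also serves the tricarboxylic acid cycle and is encoded entirely in the nucleus. Its 4 genes differed by -0.06 (Sdhd) to 0.13 (Sdhb), with 0.03 for Sdha and 0.04 for Sdhc, and all 4 intervals lay within 0.5 of 0. Sdhc, a membrane anchor, stood out by its spread in the Lov group, with 9.01, 9.72, 9.76, 9.38 and 8.66 in Lov-treated tumors, against 9.14, 9.31, 9.33, 9.25 and 9.29 in Vhcl-treated tumors. Lov A48, A50 and A55 were above and Lov A19 and AB10 below all 5 Vhcl-treated tumors, an SD of 0.47 against 0.08. Sdha, the flavoprotein that oxidizes succinate, was likewise lowest of all in Lov A19 (9.47) and reached 9.99 and 9.92 in Lov A48 and A50, against 9.57 to 10.04 in the Vhcl group.

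In complex III, the cytochrome bc1 complex, 5 of 8 genes were lower and 3 higher, with a median of -0.08. Uqcrh, the hinge protein that links cytochrome c1 to cytochrome c, had the largest positive difference. It had 10.87, 11.17, 11.17, 11.20 and 11.08 in Lov-treated tumors, against 10.29, 10.96, 11.21, 10.14 and 11.04 in Vhcl-treated tumors. Vhcl A45 and A59 lay far below the other 8 tumors, and the difference of 0.37 had a standard error of 0.20 (95% interval -0.06 to 0.80; limma, adjusted p = 0.971). It passed the unadjusted threshold without Vhcl A54 (0.49), and the second Uqcrh probe set gave 0.48. Uqcrfs1, the Rieske iron-sulfur protein and catalytic subunit, gave -0.08 (standard error 0.11), and Uqcrq, a small subunit beside cytochrome b, -0.18 (standard error 0.15).

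In complex IV, cytochrome c oxidase, 12 of 17 genes were higher and 5 lower on average in the Lov group, with a median of 0.03. Cox8a, the form of its smallest subunit that is made in most tissues, was the 1 member that passed an unadjusted p under 0.05 with a higher signal after Lov. It had 10.50, 10.67, 10.71, 10.67 and 10.55 in the Lov tumors, against 10.38, 10.35, 10.35, 10.07 and 10.50 in the Vhcl tumors. Each Lov-treated tumor was above 4 of the Vhcl-treated tumors, and the groups met only at 10.50, the value of both Lov A19 and Vhcl AB11. The difference was 0.29, a 1.22-fold higher signal (standard error 0.10; 95% interval 0.08 to 0.50; limma, adjusted p = 0.919), and the other 2 probe sets of Cox8a gave 0.21 and 0.15. Cox8a passed the unadjusted threshold in all 10 fits that left out 1 tumor, but with 0.20 it did not when Lov A55, Vhcl A54 and Vhcl A59, the tumors of highest muscle signal, were left out together, nor, with 0.21, when the beta-actin 3′ minus 5′ signal was a covariate.

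The other forms of complex IV subunits that most tissues make did not pass the unadjusted threshold, with 0.11 for Cox4i1, -0.01 for Cox6a1, 0.08 for Cox6b1, 0.06 for Cox7a2 and 0.20 for Cox6c (standard error 0.11), which passed it without Lov A50. Cox4i2, the isoform of lung and hypoxic cells, lay below the median signal of all probe sets and gave -0.07. The isoforms known from testis, Cox6b2, Cox7b2 and Cox8c, gave -0.01, -0.04 and 0.02, and that of Cox7b2 was also below the median signal. Cox7a2l, which helps to join complexes III and IV into supercomplexes, differed by 0.03 and was the steadiest gene of the 90 within the Lov group. It had 10.54, 10.56, 10.50, 10.57 and 10.48 in Lov-treated tumors (SD 0.04), against 10.31, 10.93, 10.61, 10.17 and 10.49 in Vhcl-treated tumors (SD 0.29).

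The 3 isoforms of heart and skeletal muscle, Cox6a2, Cox7a1 and Cox8b, did not move together. Cox8b had the largest difference and the largest spread of all 90 genes, with 6.80, 6.83, 6.21, 6.82 and 6.84 in Lov-treated tumors, against 5.42, 5.10, 6.57, 5.74 and 7.28 in Vhcl-treated tumors. All 5 Lov-treated tumors were above Vhcl A45, A49 and A59 and below Vhcl AB11. The difference of 0.68 had a standard error of 0.35 (95% interval -0.09 to 1.45; limma, adjusted p = 0.968) and ranged from 0.45 without Vhcl A49 to 0.99 without Vhcl AB11, the 1 of these fits in which it passed the unadjusted threshold. Cox6a2 had 6.14, 5.92, 5.88, 6.68 and 6.60 in Lov-treated tumors, against 6.04, 6.08, 6.77, 7.31 and 6.14 in Vhcl-treated tumors, a difference of -0.22 (standard error 0.26). Its 3 highest values were in Vhcl A59, Vhcl A54 and Lov A55. Cox7a1 had 6.70, 7.27, 7.18, 7.34 and 6.79 in Lov-treated tumors, against 6.39, 6.78, 7.06, 6.83 and 7.46 in Vhcl-treated tumors, a difference of 0.15 (standard error 0.19).

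The same 3 tumors carried the signal of skeletal muscle. The summed linear signal of 19 skeletal muscle markers was 657, 554, 569, 5420 and 633 in Lov A19, A48, A50, A55 and AB10, against 572, 498, 6167, 6484 and 1137 in Vhcl A45, A49, A54, A59 and AB11. Acta1, skeletal muscle actin, had a log2 signal of 10.26 in Lov A55, against 10.44 and 10.57 in Vhcl A54 and A59, and of 7.08 or less in the other 7 tumors. All 19 markers were lower on average in the Lov group, 0 of them at an unadjusted p under 0.05. Without those 3 tumors the Cox6a2 difference was 0.05, that of Cox7a1 0.11 and that of Cox8b 0.74. Cox8b and Cox7a1 are also known from brown fat, and of 8 adipocyte markers, 6 of them below the median signal of all probe sets, 2 were lower and 0 higher in the Lov group at an unadjusted p under 0.05. These were Cidea, a gene of brown fat (-0.86, standard error 0.21; limma, adjusted p = 0.919), and Fabp4, the fatty acid binding protein of fat cells (-0.86, standard error 0.37; limma, adjusted p = 0.932). The markers' summed linear signal was 168 to 491 in Lov-treated tumors, against 368 to 579 in Vhcl-treated tumors, and Ucp1, which defines brown fat, had a mean log2 signal of 3.96 in the Lov group and 4.37 in the Vhcl group.

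**Figure D3:**
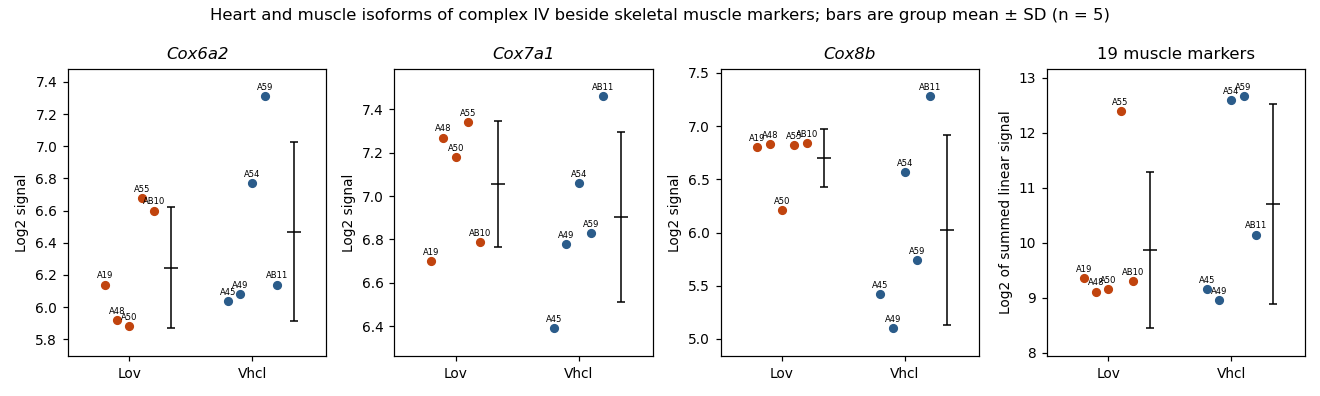
Log2 signal of the heart and muscle isoforms Cox6a2, Cox7a1 and Cox8b, and the log2 of the summed linear signal of 19 skeletal muscle markers, in each of the 5 Lov-treated and 5 Vhcl-treated tumors, with bars for the group mean ± SD. The 3 tumors of highest muscle signal, Lov A55, Vhcl A54 and Vhcl A59, are also the 3 highest for Cox6a2, but not for Cox7a1 or Cox8b.

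In complex V, ATP synthase, 12 of 17 genes were lower and 5 higher in the Lov group, with a median of -0.04 and 15 intervals within 0.5 of 0. The catalytic head was level: Atp5a1 gave -0.01 and Atp5b 0.02 (standard errors 0.14 and 0.12). The 3 genes Atp5g1, Atp5g2 and Atp5g3 encode the same mature protein of the membrane ring and gave -0.21, -0.04 and -0.03. Atp5g1 had 9.85, 10.16, 10.08, 10.06 and 9.72 in Lov-treated tumors, against 10.34, 10.59, 10.04, 9.92 and 10.02 in Vhcl-treated tumors, so that its difference came mainly from Vhcl A45 and A49. Atp5j, coupling factor 6 of the stalk, gave 0.14 (standard error 0.09; limma, adjusted p = 0.971), with 10.76 to 10.89 in the Lov group, against 10.87 in Vhcl A45 and 10.58 to 10.66 in the rest of the Vhcl group, and passed the unadjusted threshold without Vhcl A45 (0.19).

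Scores per tumor, the mean over genes of each log2 signal in SD units from that gene's mean over the 10 tumors, described how the members varied together. Over all 90 genes the score was 0.14, -0.26, 0.02, 0.38 and -0.29 in Lov A19, A48, A50, A55 and AB10, against 0.34, 0.37, -0.33, 0.02 and -0.39 in Vhcl A45, A49, A54, A59 and AB11. Both groups thus held high and low tumors, and their means were 0.00 each (SD 0.28 in the Lov group and 0.36 in the Vhcl group). By complex the mean score was -0.04 in the Lov group and 0.04 in the Vhcl group for complex I, 0.06 and -0.06 for complex II, -0.06 and 0.06 for complex III, 0.15 and -0.15 for complex IV, and -0.05 and 0.05 for complex V. The SD between tumors of a group was 0.23 or more throughout. For complex V the largest score was that of Vhcl A45 (1.06) and the smallest that of Vhcl AB11 (-0.74).

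The core catalytic subunits followed another order of tumors than the accessory subunits. The score of the 13 core subunits was -0.67, 0.45, 0.80, 0.19 and -0.77 in the Lov tumors, against 0.59, 0.11, -0.43, -0.23 and -0.03 in the Vhcl tumors. Lov A19 and AB10 were the lowest of the 10, and each held the lowest signal of 5 of the 13 genes. This was not so within complex I, whose 6 core subunits scored -0.31, -0.13, 0.44, 0.50 and -0.54 in the Lov tumors, against 0.51, 0.71, -0.50, -0.64 and -0.04 in the Vhcl tumors, with Vhcl A59 lowest. The 4 genes of complex II scored -0.92, 0.93, 0.99, 0.06 and -0.76 in the Lov tumors, against -0.06, -0.21, -0.49, 0.31 and 0.13 in the Vhcl tumors, with Lov A19 and AB10 lowest. The score of the 68 accessory subunits was 0.24, -0.38, -0.19, 0.44 and -0.17 in the Lov tumors, against 0.38, 0.35, -0.28, 0.11 and -0.49 in the Vhcl tumors, with Lov A19 above and Lov A48 and A50 below 0. The beta-actin 3′ minus 5′ log2 signal, which grows as RNA degrades, was 1.05 and 1.07 in Lov A19 and AB10 and 0.67 to 0.78 in Lov A48, A50 and A55, against 1.20 and 1.35 in Vhcl A54 and A59 and 0.80 to 0.99 in Vhcl A45, A49 and AB11. The same measure of Gapdh did not set Lov A19 and AB10 apart. It was 0.29 and 0.32 there and 0.17, 0.31 and 0.20 in Lov A48, A50 and A55. In Vhcl A45, A49, A54, A59 and AB11 it was 0.16, 0.31, 0.52, 0.57 and 0.30. The tumors highest by the beta-actin measure, Vhcl A59 and A54 and Lov AB10 and A19, had the lowest core scores, though in another order. The part of RNA quality in the core score was not tested. Atp5a1 showed the pattern at a single gene, with 11.47, 12.03, 11.98, 11.76 and 11.46 in the Lov tumors, against 12.03, 11.61, 11.69, 11.67 and 11.73 in the Vhcl tumors.

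**Figure D4:**
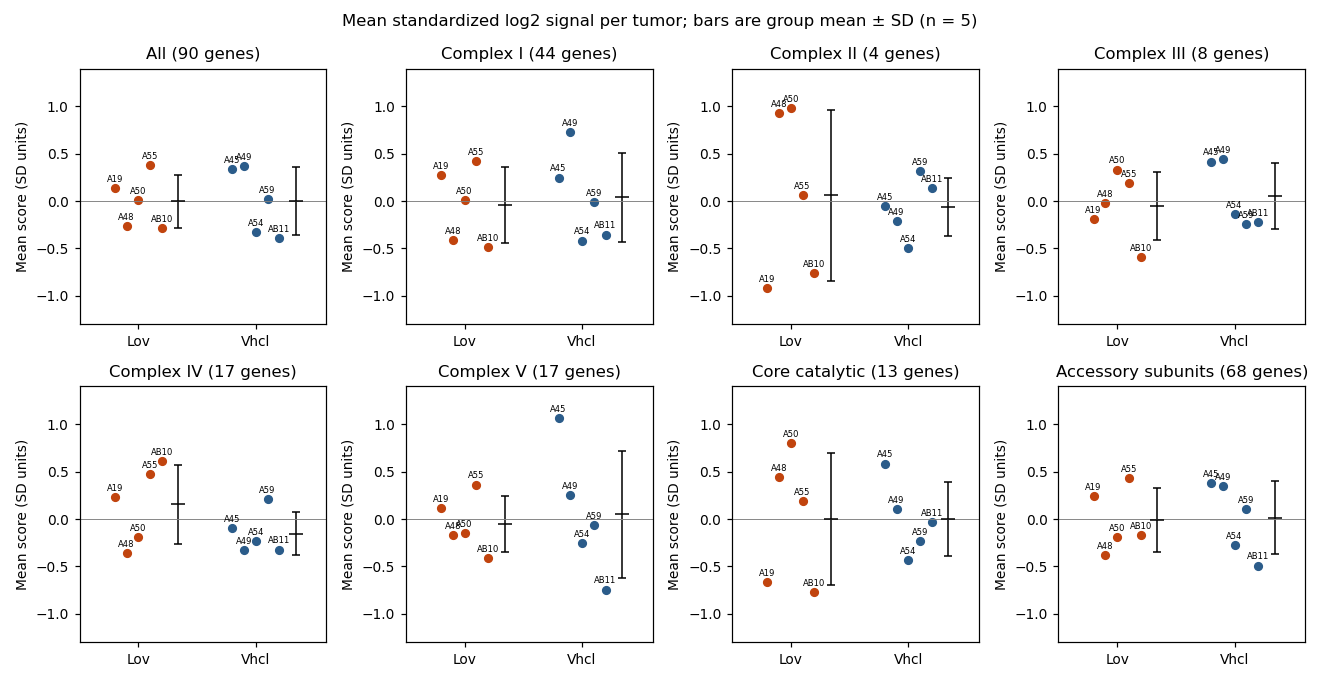
Mean standardized log2 signal per tumor (vertical axis, SD units) over all 90 genes, each complex, the 13 core catalytic subunits and the 68 accessory subunits, for 5 Lov-treated and 5 Vhcl-treated tumors, with bars for the group mean ± SD. The groups overlap in every panel, and in the core panel Lov A19 and AB10 lie below all other tumors.

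Extreme values were uneven over the tumors. Of the 90 genes, the highest signal was in a Lov-treated tumor for 27 and in a Vhcl-treated tumor for 59, with 4 tied, and the lowest was in a Lov-treated tumor for 43 and in a Vhcl-treated tumor for 46, with 1 tied. Vhcl A49 alone held the highest value of 24 genes, and Vhcl A45 and A59 of 16 each. Lov AB10 held the lowest value of 20 genes and Vhcl A59 of 17, whereas Lov A55 held the highest of 11 and the lowest of 0. These counts were not made over all 18193 genes, so whether they are particular to the members was not tested. The SD was smaller in the Lov group for 58 of the 90 genes (64.4%), against 59.5% of all genes, with medians of 0.17 in the Lov group and 0.21 in the Vhcl group.

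**Figure D5:**
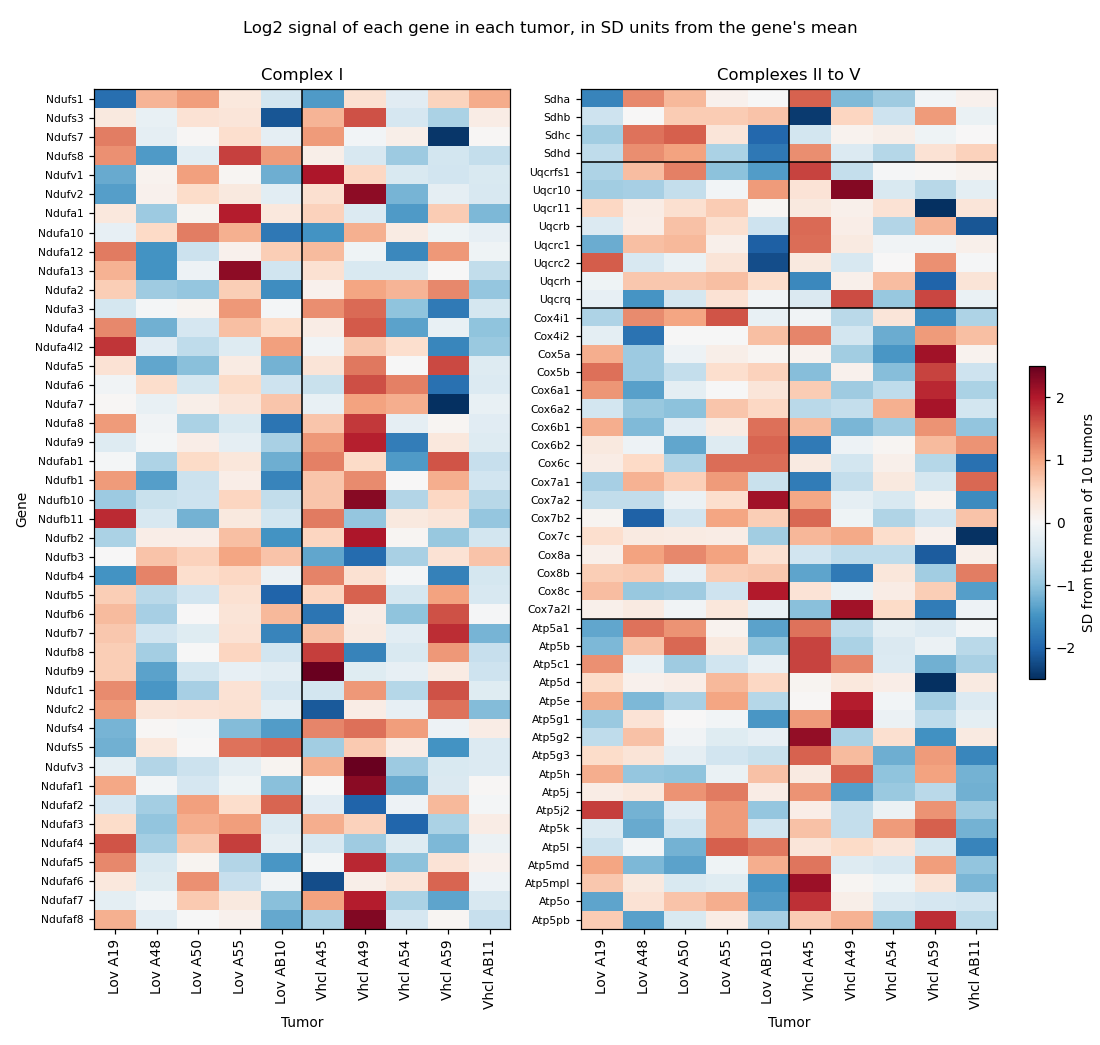
Log2 signal of each of the 90 genes (rows, by complex) in each tumor (columns, Lov left of Vhcl), in SD units from the gene's mean over the 10 tumors, where red is above and blue below that mean. In none of the genes do the groups lie fully apart, and the highest value of a gene was most often in Vhcl A49 (24 genes), followed by Vhcl A45 and A59 (16 each) and Lov A55 (11).

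Genes of neighboring mitochondrial functions were counted from lists. None of their genes was past an FDR of 0.05, and the counts that follow are at an unadjusted p under 0.05, which 6.24% of all genes passed. Cytochrome c (Cycs), cytochrome c1 (Cyc1) and the electron transfer flavoproteins gave 0 of 5 in either direction, with a median of -0.15. Etfdh, which passes electrons from these flavoproteins to ubiquinone, gave -0.30 (standard error 0.15; limma, adjusted p = 0.956) and Etfb, a subunit of the flavoprotein, -0.22 (standard error 0.11; limma, adjusted p = 0.958), against 0.01 for Cycs and 0.02 for Cyc1. The enzymes of ubiquinone synthesis gave 0 of 11, with a median of -0.02 and the largest differences at Pdss2, which builds the isoprenoid tail (0.27, standard error 0.16), and Coq2, which attaches it (0.26, standard error 0.15). Of 33 assembly factors outside the symbol rule, 4 were higher and 1 was lower. Cox20 and Sdhaf2, which act on complexes IV and II, each gave 0.29 (limma, adjusted p = 0.932 each). In the tricarboxylic acid cycle 1 of 13 was lower and 0 were higher. That gene was Idh2, the mitochondrial NADP-dependent isocitrate dehydrogenase, with 7.71, 7.73, 7.86, 7.42 and 7.48 in Lov-treated tumors, against 8.37, 7.78, 8.01, 8.32 and 7.82 in Vhcl-treated tumors. The groups overlapped only through Lov A50, and the difference was -0.42 (standard error 0.14; limma, adjusted p = 0.919). Suclg1, a subunit of succinyl-CoA ligase, gave -0.19.

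Among 14 regulators of mitochondrial biogenesis 2 were higher and 1 was lower. Polrmt, the RNA polymerase of mitochondria, had 7.70, 7.36, 7.49, 7.49 and 7.70 in Lov-treated tumors, against 7.11, 6.89, 6.57, 6.56 and 7.50 in Vhcl-treated tumors. Lov-treated tumors were above every Vhcl-treated tumor but AB11, and the difference was 0.62 (standard error 0.17; limma, adjusted p = 0.919). Ppargc1b, a coactivator of respiratory genes, gave -0.37 (standard error 0.15; limma, adjusted p = 0.932). ND5, the 1 subunit encoded in mitochondrial DNA that was found among the annotated symbols, gave 0.00 (standard error 0.18), with Lov A19 lowest at 11.77. Of 76 proteins of the mitochondrial ribosome, 58 were lower (49.3% of all genes were) and 18 higher in the Lov group, with a median of -0.09. Of the 76, 4 were lower and 1 was higher at the unadjusted threshold, which 6.24% of all genes passed. Mrps18b, of the small subunit, had 7.54, 7.29, 7.47, 7.57 and 6.90 in Lov-treated tumors, against 7.98, 8.20, 7.59, 7.88 and 7.64 in Vhcl-treated tumors. Its groups did not overlap, as in 0.693% of all genes, and the difference was -0.50 (standard error 0.16; limma, adjusted p = 0.919). Mrpl22, of the large subunit, gave -0.33.

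Genes of the hypoxia response, which in other settings accompany a lower use of respiration, were set beside the members. Of 13 genes, 7 were lower and 0 higher at the unadjusted threshold, with a median of -0.59. Their summed linear signal was 16670, 12243, 11632, 10498 and 8928 in Lov A19, A48, A50, A55 and AB10, against 16970, 16051, 16312, 21292 and 14805 in Vhcl A45, A49, A54, A59 and AB11. Lov A19 thus lay inside the Vhcl range, and the other 4 Lov-treated tumors lay below it. Ndrg1 gave -1.84 (standard error 0.41; limma, adjusted p = 0.879) and Bnip3, a receptor for the removal of mitochondria, -1.17 (standard error 0.27; limma, adjusted p = 0.919). The members known to answer to hypoxia, Cox4i2 and Ndufa4l2, gave -0.07 and 0.12, as stated above.

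Of the mammary epithelial markers, which stand for the labelled tissue, 8 of 9 were lower on average in the Lov group (49.3% of all genes were). The exception was Epcam, with a mean log2 signal of 12.42 in the Lov group and 12.38 in the Vhcl group. Krt18 gave -0.31 (standard error 0.15) and Krt8 -0.20 (standard error 0.12). Krt19 averaged 4.81 in the Lov group and 5.82 in the Vhcl group, where A59 (8.24) and A49 (6.46) were highest and A54 (4.27) was the lowest of all 10 tumors. The 9 markers gave 0 at the unadjusted threshold in either direction and a median of -0.10. Other cell types of the tumor gave 1 higher and 2 lower of 10 leukocyte markers, 0 of 6 endothelial, 0 of 10 fibroblast and smooth muscle and 0 of 3 erythroid markers, and of 5 salivary gland markers 2 were lower, with a median of -2.49. The summed linear signal of the leukocyte list was 1649 to 2869 in Lov-treated tumors, against 1818 to 3466 in Vhcl-treated tumors. That of the salivary gland list was 61.2 to 430 in Lov-treated tumors. It was 418, 839, 148, 2267 and 37809 in Vhcl A45, A49, A54, A59 and AB11, by far the most in AB11. Array medians were 4.99 to 5.05 in the Lov group and 4.97 to 5.02 in the Vhcl group. The part of other cell types in the members' differences was not tested, apart from the fits without the tumors of highest muscle signal.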

How the data were processed

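RNA of 10 whole tumors was measured on 1 Affymetrix mouse genome array each. The authors summarized and normalized the raw intensities by RMA, for which the submitters' processing notes name the affy package, and deposited log2 signals with 2 decimals. Versions and a genome build for the arrays were not given in the sources used here. Arrays have no sequencing depth, and their number limits the precision of each difference.

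Lov was compared with Vhcl by limma (version 3.58.1, under R version 4.3.3) over 45037 probe sets, without the 64 array controls, by 2-sided moderated tests with Benjamini-Hochberg adjustment over the whole table. Gene symbols came from the platform annotation, where 34945 probe sets had 1 symbol, 932 several and 9160 none, and all 90 members matched the RefSeq gene table. Of the 90 genes, 51 had several probe sets of their own, and in 23 of these the probe sets differed in sign. The members' probe sets carried a suffix of possible cross-hybridization (_s_at, _x_at or _a_at) in 48 cases. Members and gene lists were chosen with earlier results of these data known.

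Genes were named by rule: members with an unadjusted p under 0.05, the lowest p in each direction per complex, isoforms of complexes IV and V, core catalytic subunits, the 3 members of largest SD, and the 2 lowest p per list of another pathway. Marker lists had no such rule. Named beyond it, with values seen, were Ndufb1, Ndufb4, Cox6c, Cox7c, Cycs, Cyc1, Acta1, Cidea, Fabp4, Ucp1, Epcam, Krt8, Krt18 and Krt19. On simulated data with the same 45037 probe sets, 78 of 100 differences of log2 1 and 98 of 100 of log2 2 were recovered at an FDR of 0.05, with 12 of 44837 unchanged probe sets called. Smaller differences, such as those of the members (at most 0.68), were not simulated, so their recovery is not known. Alternatives were array weights, a prior that is trended and robust, Student's t-test as in the methods' statistics, a covariate for the prefix of the tumor ID, centering, quantile normalization, a gene's mean over its probe sets, filters on probe set names and signal, and leaving out each tumor. Chosen after seeing the data were the beta-actin covariate and leaving out the 3 tumors of highest muscle signal.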

Additional observations from a re-analysis of the deposited data

Results flagged for a closer look

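Within each group of 5 tumors, the highest or lowest signal was compared with its neighbors for the members named above and the scores. Of 98 groups so examined, 5 held a tumor set apart from the other 4, and chance alone would set one apart in about 1 in 20 groups, or 4.9 here. In the Lov group, Cox8b was 6.21 in A50 and 6.80 to 6.84 in the others, and Ndufs3 was 9.37 in AB10 and 9.69 to 9.78 in the others. In the Vhcl group, A45 stood above the others for 3 genes of complex V: Atp5a1 was 12.03 there and 11.61 to 11.73 elsewhere, Atp5b was 12.20 and 11.74 to 11.86, and Atp5j was 10.87 and 10.58 to 10.66. Vhcl A45 also had the highest complex V score, 1.06. The reasons were not tested.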

How the results depend on the processing

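No paired analysis was possible because the labels carry a different ID for each tumor and none that the groups share. Of 791 values of the 38 named genes, 26 no longer passed the unadjusted threshold, 13 newly passed it and 752 stayed on their side of it. The sign differed from the main value in 62 values of 19 genes, none of them past the threshold and none of Cox8a, Ndufa5 or Ndufs4, and in no case did both values exceed their standard error. No member passed an FDR of 0.05 under any alternative, including each fit without 1 tumor (0 to 0). The count of lower members, 2, was 0 with the trended, robust prior, array weights, only signals above the median, or without the 3 tumors of highest muscle signal, 1 with Student's t-test, the mean of all probe sets or without _s_at, _x_at and _a_at probe sets, and 5 with the beta-actin covariate. The count of higher members, 1, was 2 with Student's t-test, the tumor ID prefix, the mean of all probe sets or without those probe sets, and 0 without the 3 tumors. The groups of 1 member in place of 0 lay apart after median centering, quantile normalization or without the 3 tumors. The complex III median was 0.059 without those probe sets, against -0.08, and the complex IV median 0.10 with the beta-actin covariate, against 0.03. The cause was not tested, apart from fewer members or tumors entering some fits. Leaving out 1 tumor gave 0 to 2 lower and 1 (without Vhcl A49, for example) to 3 (without Vhcl AB11) higher members, 0 to 1 whose groups lay apart, and medians of -0.03 to 0.01 over the members, -0.05 to 0.03 for complex I, -0.04 to 0.11 for II, -0.091 to -0.00075 for III, 0.01 to 0.07 for IV and -0.06 to 0.02 for V. The mean score difference was -0.10 (without Vhcl AB11) to 0.09 (without Vhcl A49), and -0.17 without the 3 tumors of highest muscle signal. The complex I median was -0.09 without those 3 tumors and -0.08 with the beta-actin covariate, against -0.01, and the complex II median -0.07 with that covariate, against 0.04. Probe sets near background limit Cox4i2, Cox7b2 and Ndufb4. Those of Cox6b2, Cox7c and Ndufb1 were also dim, with mean signals of 5.24, 5.73 and 5.85, against a median of 5.02 over all probe sets.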
